A study of Homo sapiens with 12 samples.

Results

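The human mitochondrial genome encodes 37 RNAs, and all 37 were found by Ensembl gene ID among the 60605 genes measured by RNA sequencing in SBC5 cells, an established small cell lung cancer line. They comprise 13 mRNAs, 2 ribosomal RNAs (rRNAs) and 22 transfer RNAs (tRNAs). Membership rests on where a gene is encoded and uses no measured value. The groups were the combination (the PARP inhibitor olaparib at 1 µM, then 4 Gy of gamma radiation 2 hours later), olaparib with no radiation, radiation at 4 Gy after the solvent dimethyl sulfoxide (DMSO), and vehicle (DMSO with no radiation). Each group had 3 libraries of total RNA collected after 3 days. All groups were wild-type SBC5, so the results describe 1 cell line.

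As background, the mitochondrial genome is a small circle transcribed from both strands into long precursor RNAs by the polymerase POLRMT with the factors TFAM and TFB2M. In most places a tRNA lies between neighbouring mRNAs or rRNAs, and its excision releases them. RNase P cuts at the 5′ end of the tRNA and ELAC2 at its 3′ end. The mRNAs encode subunits of respiratory complexes I, III and IV and of the ATP synthase (complex V), and the rRNAs and tRNAs serve the mitochondrial ribosome that translates them. The RNA-binding pair LRPPRC and SLIRP is known to protect mitochondrial mRNAs from decay.

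Total counts ran from 14300118 to 38804711 per library, and the members took 30.7% to 41.8% of them. Olaparib 2, olaparib 3 and radiation 3 carried a high background, with summed levels of 404 olfactory receptor genes of 1897, 2098 and 920.2 CPM (counts per 1000000 counts of the library), against 354.7 to 501.4 CPM in the other 9 libraries. These 3 libraries are given apart, and comparisons rest on the other 9, which are 3 combination, 1 olaparib, 2 radiation and 3 vehicle libraries. Among markers in the 9 libraries, YAP1 (84.0 to 123.5 CPM) and SYP (16.4 to 27.3 CPM) were present, while the neuroendocrine markers INSM1 (0 to 0.285 CPM) and CHGA (0 to 0.538 CPM) were at or near 0, as was the T cell marker CD3E (0 to 0.143 CPM). CD68 (78.1 to 99.97 CPM) and COL1A1 (11.7 to 17.3 CPM) were present, and the other markers of epithelium, leukocytes, fibroblasts and endothelium stood at 2.9 CPM or less. Nothing in the labels ties the 3 libraries of a group to different cultures, so the tests measure a spread between libraries that may be technical.

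The tRNA sequences below, from GENCODE 29 on GRCh38, belong to the tRNA with the largest called fall (MT-TS1), another with a large fall (MT-TE), the most abundant pair (MT-TP and MT-TY) and a pair that did not pass the test (MT-TM and MT-TF). Capitals mark the anticodon, letters are those of the DNA, and all are written 5′ to 3′.
MT-TS1 (serine, chrM:7446-7514, minus strand): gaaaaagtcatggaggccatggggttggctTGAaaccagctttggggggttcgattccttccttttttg
MT-TE (glutamic acid, chrM:14674-14742, minus strand): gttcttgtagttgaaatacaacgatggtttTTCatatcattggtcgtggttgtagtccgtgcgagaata
MT-TP (proline, chrM:15956-16023, minus strand): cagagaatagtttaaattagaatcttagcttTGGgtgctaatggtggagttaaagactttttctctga
MT-TY (tyrosine, chrM:5826-5891, minus strand): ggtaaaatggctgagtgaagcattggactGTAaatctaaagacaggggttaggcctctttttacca
MT-TM (methionine, chrM:4402-4469, plus strand): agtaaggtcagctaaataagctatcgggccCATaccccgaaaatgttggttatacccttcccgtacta
MT-TF (phenylalanine, chrM:577-647, plus strand): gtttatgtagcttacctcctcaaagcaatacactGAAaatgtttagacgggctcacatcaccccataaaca
These tRNAs are 66 to 71 bases long. Counts on a gene this short can include fragments of precursor RNA that span the tRNA, and the deposited values do not separate precursor from mature tRNA.

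Some members share sequence. MT-ATP8 and MT-ATP6, which encode subunits of the ATP synthase, overlap by 46 bases on the same strand, at chrM:8527-8572 of GRCh38, and a read within that stretch cannot be told apart between them.
MT-ATP8/MT-ATP6 overlap: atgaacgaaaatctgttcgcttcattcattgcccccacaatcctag
MT-ND4L and MT-ND4 overlap by 7 bases. Of the 31-base words in each member, the share also found in another GENCODE 29 transcript was 66.7% in MT-CO1, 63.7% in MT-ATP6, 56.9% in MT-ND2 and 50.5% in MT-CO2, mainly in nuclear copies such as MTCO1P12 and MTATP6P1. It was 45.0% in MT-CO3, 44.6% in MT-ATP8, 31.7% in MT-RNR2, 4.95% in MT-CYB, 3.48% in MT-ND3, and 0 in MT-RNR1 and every tRNA. The sources used here do not say how the authors' counting split such reads. The levels of the members with the largest shares, and of MT-ATP8 with its overlap, are the least certain.

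The 3 classes of mitochondrial RNA were all lower in the combination than in vehicle, the mRNAs and tRNAs by more than the rRNAs. The 13 mRNAs summed to 29313, 28403 and 28359 scaled CPM in combination 1, 2 and 3, against 53424, 51052 and 54121 in vehicle 1, 2 and 3. They summed to 43123 in olaparib 1, and to 30484 and 31522 in radiation 1 and 2. Both irradiated groups lay below olaparib 1, which lay below every vehicle library. The 22 tRNAs summed to 249.6, 288.3 and 279.1 scaled CPM in the combination and 514.7, 532.7 and 528.6 in vehicle, with 470.6 in olaparib 1 and 316.9 and 351.8 in radiation 1 and 2. The 2 rRNAs summed to 305231 to 316382 scaled CPM in the combination, 349674 in olaparib 1, 341646 and 342658 in radiation, and 378685 to 401777 in vehicle. The ratio of rRNA to mRNA counts, which no scaling of libraries changes, was 10.7 to 10.8 in the combination, 8.11 in olaparib 1, 10.9 and 11.2 in radiation, and 7.18 to 7.42 in vehicle. As shares of all counts, the mRNAs took 3.05% to 3.10% in the combination, 4.23% in olaparib 1 (95% Wilson interval 4.22% to 4.23%), 3.05% and 3.20% in radiation, and 4.79% to 5.05% in vehicle. Intervals and limits of this kind cover counting error only. Counts scaled to a library give relative abundance, so fewer mitochondrial transcripts per cell and more of other RNA cannot be told apart.

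**Figure D1:**
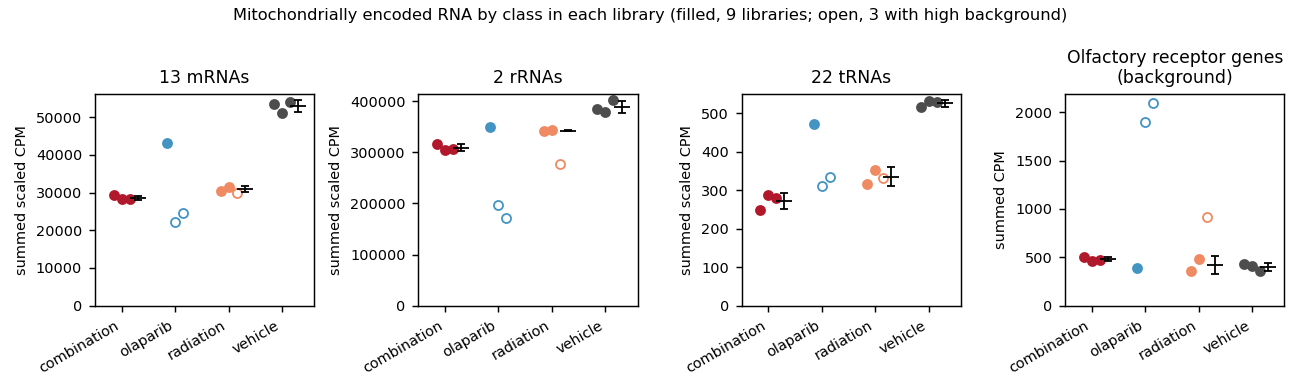
Summed scaled CPM of the 13 mRNAs, 2 rRNAs and 22 tRNAs, and summed CPM of olfactory receptor genes, by group. Each point is a library, open points are the 3 with high background, and bars are the mean and SD of the filled points; the combination's mRNA sums (28359 to 29313) all lie below those of vehicle (51052 to 54121).

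In the combination against vehicle, edgeR with adjustment over all 30967 genes tested called 23 members lower and none higher, of 36 with enough counts to test. Over all genes, 4.8% were called, with 3.26% lower and 1.53% higher. The called members were 12 of 13 mRNAs, 1 of 2 rRNAs and 10 of 21 tested tRNAs. MT-TS2 was the member not tested. At an unadjusted p under 0.05, 29 members were lower and 0 higher, where 4445 of the 30967 genes passed in either direction. DESeq2 and limma-voom also called 0 higher, with 21 lower each, and both called all 13 mRNAs. Of all 30967 genes, DESeq2 called 1130 lower and 581 higher, and limma-voom 768 lower and 318 higher. With all 12 libraries in the fit, edgeR called 0 of 35 tested members (25 lower at an unadjusted p under 0.05) and 1 of 31858 genes in all, so that count says nothing particular to the members. The median log2 change of the mRNAs in that fit was -0.90. That median was also -0.90 in the 9 libraries, where the median of all genes was 0.02. With libraries scaled by size only, the median of all genes was 0.22 and that of the mRNAs -0.70, and the genes called were 319 lower and 2275 higher, against 1010 lower and 475 higher with TMM scaling. With size only, 20 members were lower and 0 higher. With the olfactory receptor sum as a covariate over 12 libraries, 21 of 35 members were lower. Of all 31858 genes in that fit, 374 were lower and 455 higher.

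Complex I takes electrons from NADH, and 7 of its subunits are mitochondrially encoded. Their mRNAs summed to 15059 to 16726 scaled CPM in the combination and 27788 to 29212 in vehicle. MT-ND3, one of its core membrane subunits, had 140.7, 144.4 and 135.2 scaled CPM in combination 1, 2 and 3, against 344.3, 361.3 and 360.3 in vehicle. Every combination library lay far below every vehicle library, and this was the largest fall among the mRNAs (log2 change -1.34, SE 0.0694, adjusted p = 9.2e-26). MT-ND4, another membrane subunit, had 8069, 7260 and 7100 scaled CPM in the combination and 13715, 13239 and 13592 in vehicle (log2 -0.85, SE 0.048). MT-ND1, the subunit encoded nearest to the rRNAs, fell least of all mRNAs (log2 -0.54, SE 0.0563, adjusted p = 1.73e-11), with 1311 to 1521 scaled CPM in the combination and 2011 to 2050 in vehicle. MT-ND2 (log2 -0.73), MT-ND4L (-1.04) and MT-ND5 (-0.90) lay between them.

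MT-ND6, another complex I subunit, is the only mRNA transcribed from the light strand. It had 1648, 1445 and 1336 scaled CPM in the combination, against 2854, 2845 and 2085 in vehicle. The groups did not overlap, but vehicle 3 stood well below the other vehicle libraries, and the change did not pass the test (log2 -0.81, SE 0.152, adjusted p = 0.0528). Its value thus lies within the range of the mRNAs that passed.

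Complex IV, cytochrome c oxidase, passes electrons to oxygen, and its 3 mitochondrial subunits form its catalytic core. Their mRNAs summed to 9631 to 10421 scaled CPM in the combination and 17740 to 21413 in vehicle. MT-CO1, which carries the oxygen-reducing site, had 6237, 6535 and 7000 scaled CPM in the combination and 12603, 11664 and 14486 in vehicle (log2 -0.97, SE 0.0786, adjusted p = 1.74e-05). MT-CO2, which accepts electrons from cytochrome c, fell by a similar amount (log2 -0.94, SE 0.053), as did MT-CO3 (log2 -0.89, SE 0.056). MT-CYB, the mitochondrial subunit of complex III, had 1398, 1383 and 1424 scaled CPM in the combination and 2079, 1916 and 2169 in vehicle. Its fall (log2 -0.55, SE 0.0558, adjusted p = 5.48e-12) was close to that of MT-ND1. The ATP synthase subunits MT-ATP6 (log2 -1.05, SE 0.0571) and MT-ATP8 (log2 -0.90, SE 0.0685) also fell, MT-ATP6 to 991 to 1084 scaled CPM in the combination, against 2004 to 2226 in vehicle.

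**Figure D2:**
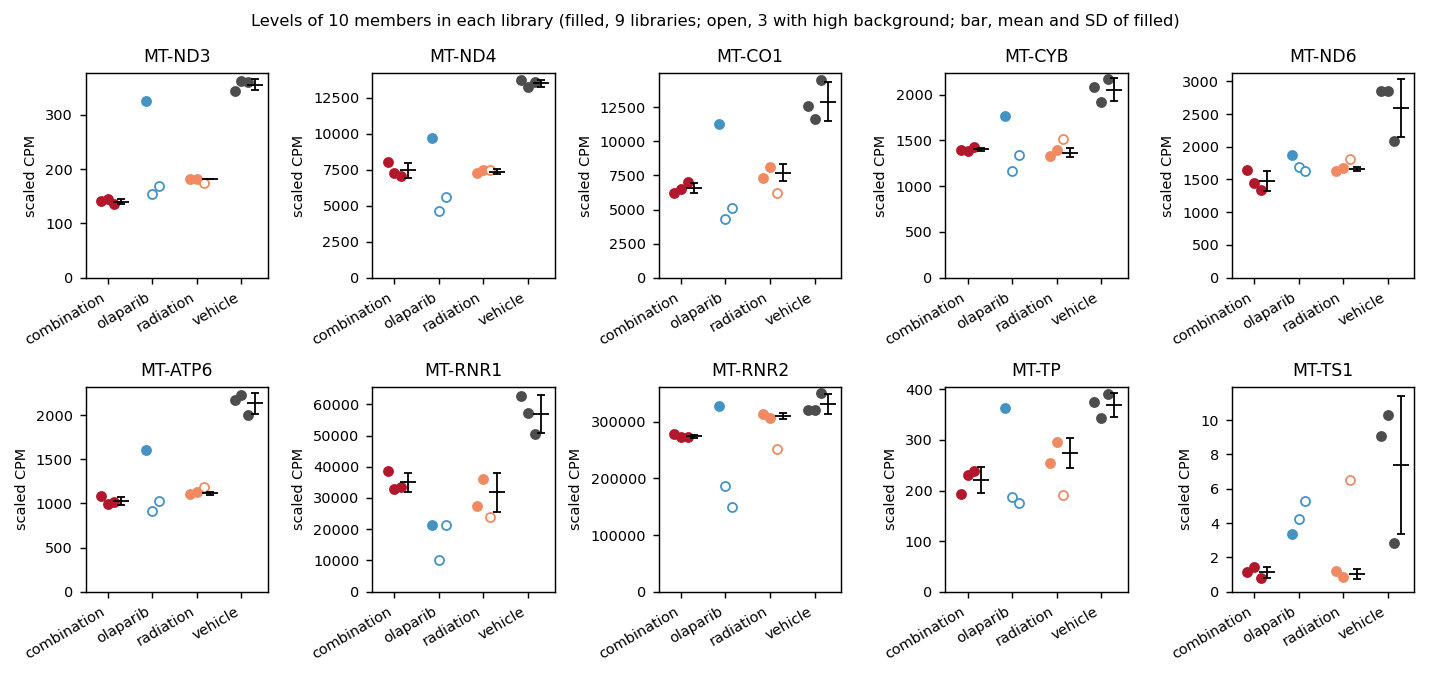
Scaled CPM of 10 members by group, from 0. Each point is a library, open points are the 3 with high background, and bars are the mean and SD of the filled points; MT-ND3 lies at 135.2 to 144.4 in the combination and 344.3 to 361.3 in vehicle, while MT-RNR2 differs much less.

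The rRNAs moved less evenly. MT-RNR2, the 16S rRNA of the large ribosomal subunit, was the most abundant RNA of all members, at 277762, 272467 and 272518 scaled CPM in the combination and 321038, 321459 and 351254 in vehicle. The groups did not overlap, and the fall was the smallest among called members (log2 -0.27, SE 0.0351, adjusted p = 1.54e-08). This call ended when libraries were scaled by size only (log2 -0.07, adjusted p = 0.141) and with the background covariate (adjusted p = 0.226). MT-RNR1, the 12S rRNA of the small subunit, had 38619, 32765 and 33490 scaled CPM in the combination and 62608, 57226 and 50523 in vehicle. Its groups did not overlap either, but its change did not pass the test (log2 -0.70, SE 0.146, adjusted p = 0.0762). The count ratio of MT-RNR2 to MT-RNR1 was 7.19, 8.32 and 8.14 in the combination, 15.3 in olaparib 1, 11.5 and 8.47 in radiation, and 5.13, 5.62 and 6.95 in vehicle. It thus differed between libraries of 1 group as well as between groups. Whether the library kit removed these rRNAs is not given in the sources used here, and the part of such a step in these values was not tested.

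Most tRNA counts came from MT-TP, the proline tRNA, which took 77.1% to 85.6% of them in the combination and 64.3% to 73.9% in vehicle. It had 192.5, 230.9 and 239 scaled CPM in the combination, against 374.2, 342.5 and 390.5 in vehicle (log2 -0.74, SE 0.0752, adjusted p = 5.26e-10), a fall of the size seen in the mRNAs. MT-TY, the tyrosine tRNA, had 24.8, 27.5 and 20.8 scaled CPM in the combination and 59, 89.6 and 78.7 in vehicle (log2 -1.64, SE 0.145, adjusted p = 1.28e-06). Neither tRNA's combination libraries overlapped with vehicle. The other tRNAs stood far lower, with group means of at most 21.6 scaled CPM.

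Several of these scarce tRNAs fell by more than any mRNA. MT-TE, the glutamic acid tRNA, had 6.19, 4.17 and 4.51 scaled CPM in the combination and 23, 26.6 and 15.1 in vehicle (log2 -2.12, SE 0.195, adjusted p = 1.01e-12). MT-TS1, a serine tRNA, had 24, 32 and 17 counts in the combination, against 231, 325 and 88 in vehicle, and vehicle 3 stood well below the other vehicle libraries (log2 -2.69, SE 0.39, adjusted p = 4.04e-06). MT-TL2, a leucine tRNA, fell by 2.02 on the log2 scale (SE 0.283, adjusted p = 3.5e-07). MT-TC (cysteine, log2 -1.44), MT-TV (valine, log2 -1.34), MT-TW (tryptophan, log2 -1.95), MT-TG (glycine, log2 -1.83) and MT-TA (alanine, log2 -1.10) were called lower too. The last 3 calls depended on single libraries. MT-TW lost its call without vehicle 2 (adjusted p = 0.116), and MT-TA without combination 3 (0.293), olaparib 1 (0.0612), vehicle 2 (0.377) or vehicle 3 (0.0842). MT-TG lost it without combination 2 or 3, olaparib 1 or any vehicle library (adjusted p = 0.0516 to 0.22). MT-TW, MT-TA and MT-TG also missed the threshold in limma-voom (adjusted p = 0.0703, 0.104 and 0.11). With the background covariate over 12 libraries in edgeR, MT-TS1 (adjusted p = 0.064) and MT-TA (0.109) lost their calls.

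The 11 tested tRNAs that did not pass were mostly low in counts. MT-TF, the phenylalanine tRNA that opens the heavy-strand transcript, had 37, 60 and 37 counts in the combination and 71, 87 and 49 in vehicle, with overlapping scaled levels (log2 -0.18, SE 0.384, adjusted p = 0.932). MT-TM, the methionine tRNA, had 32, 24 and 16 counts in the combination and 45, 27 and 15 in vehicle, and its scaled levels overlapped as well (log2 0.14, SE 0.652, adjusted p = 0.978). MT-TQ, the glutamine tRNA, had 3, 2 and 2 counts in the combination and 20, 33 and 29 in vehicle, a gap that did not pass the test (log2 -3.01, SE 1.03, adjusted p = 0.0807). MT-TL1, the other leucine tRNA, was close to the threshold (log2 -1.17, SE 0.382, adjusted p = 0.0601). MT-TR, the arginine tRNA, had 1 to 8 counts in the combination and 0 to 8 in vehicle, so no change was detectable at this depth. MT-TS2, the other serine tRNA, had 0, 1 and 0 counts in the combination and 4, 3 and 10 in vehicle, too few to test. MT-TI, MT-TN, MT-TD, MT-TK, MT-TH and MT-TT were the remainder, with log2 changes of -2.48 to -0.44. Counting all members whether tested or not, the combination libraries lay below every vehicle library in 31 of 37, made up of 13 mRNAs, 2 rRNAs and 16 tRNAs. The same held in 10.4% of all genes tested.

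**Figure D3:**
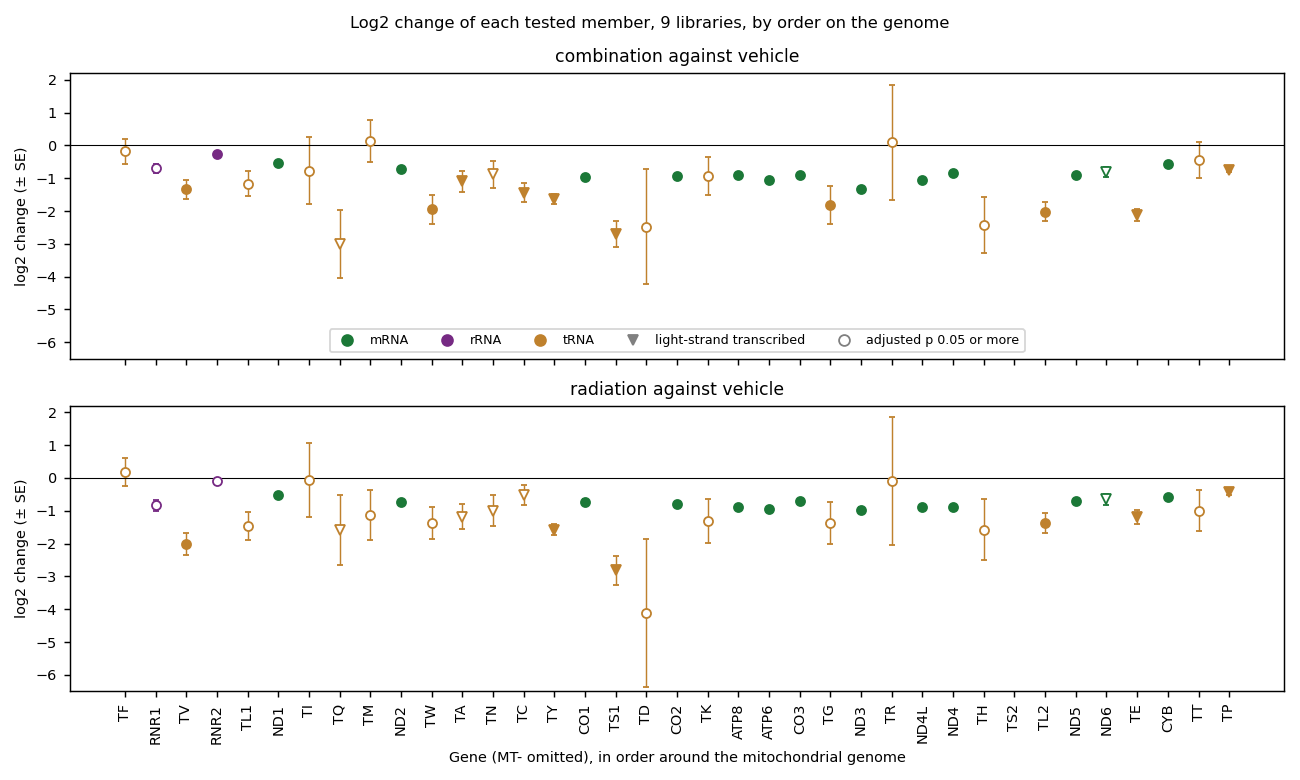
Log2 change with its SE for each tested member in the combination (top) and radiation (bottom) against vehicle, placed in order around the mitochondrial genome. Filled points passed an adjusted p of 0.05, and triangles are transcribed from the light strand; mRNAs lie at -1.34 to -0.54 in the combination, and tRNAs spread more widely.

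Changes were also set beside position and strand. Over the 12 heavy-strand mRNAs, the log2 change in the combination had a Spearman correlation of -0.0769 with order along the genome, 0.49 with transcript length and -0.203 with the vehicle level per length. These points share libraries, so the values are a description. In the combination, 6 of the 8 light-strand tRNAs were called lower (median log2 -1.54), and 4 of the 13 tested heavy-strand tRNAs were (median log2 -1.17). In radiation against vehicle the medians stood in the other order. They were -1.19 for the light-strand tRNAs (4 called lower) and -1.37 for the heavy-strand tRNAs (2 called lower). The light-strand tRNAs include the abundant MT-TP and MT-TY, and the difference between strands was not tested. Without MT-TP, the light-strand tRNAs summed to 29.6 to 41.3 scaled CPM in the combination and 102.5 to 147.4 in vehicle. The 14 heavy-strand tRNAs summed to 10.5 to 16.6 in the combination and 26.2 to 42.8 in vehicle. The count ratio of MT-ND6 to MT-ND5, which lie end to end on opposite strands, was 0.426 to 0.489 in the combination and 0.356 to 0.48 in vehicle, so these ranges overlapped.

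The mRNAs did not fall in equal proportion. MT-ND3 made up 0.477% to 0.508% of the summed mRNA counts in the combination, 0.754% in olaparib 1, 0.577% and 0.595% in radiation, and 0.644% to 0.708% in vehicle. MT-ATP6 and MT-ND4L also held smaller shares in every combination library than in every vehicle library, with log2 ratios of mean shares of -0.17 and -0.16. Larger shares were held by MT-ND1 (4.62% to 5.35% in the combination and 3.76% to 3.94% in vehicle), MT-CYB (4.77% to 5.02% in the combination and 3.75% to 4.01% in vehicle) and MT-ND2 (log2 ratio 0.15). The shares of the other 7 mRNAs overlapped between the groups. In radiation, MT-ND3, MT-ATP6 and MT-ND4L again held smaller and MT-ND1 and MT-CYB larger shares than in every vehicle library. MT-ND4 also held smaller (log2 ratio -0.10) and MT-ND5 larger shares (0.08) there, and MT-ND2 overlapped. For MT-ND5 the gap was narrow, with 11.66% to 12.31% in radiation and 10.83% to 11.62% in vehicle. Both comparisons use the same vehicle libraries. The shares were not tested, and how often groups this small separate by chance was not counted.

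**Figure D4:**
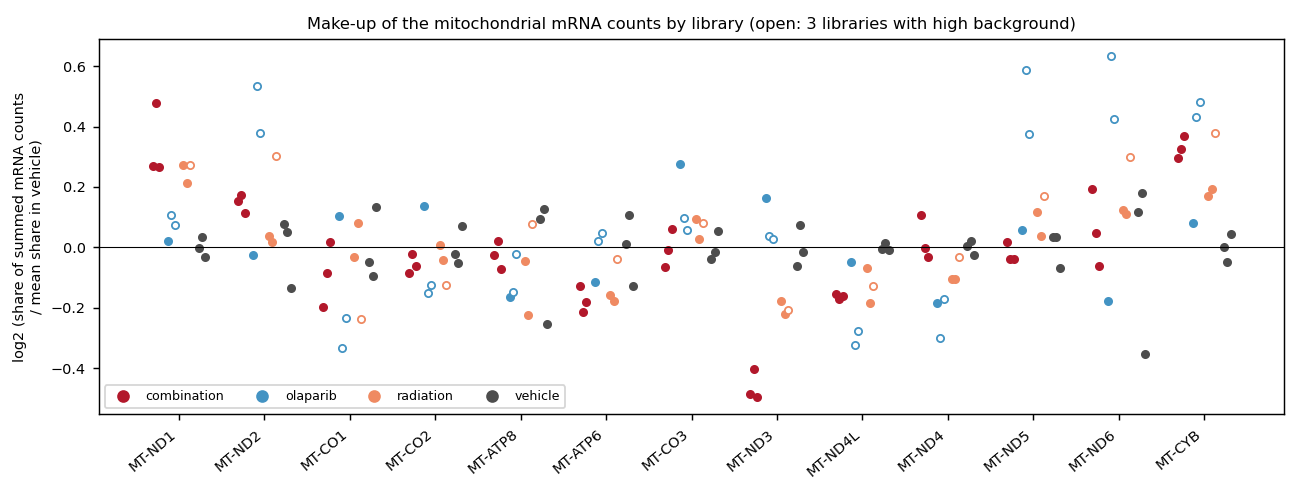
Share of each mRNA in the summed mitochondrial mRNA counts of its library, as a log2 ratio to the mean share in vehicle. Each point is a library and open points are the 3 with high background; MT-ND3 is lowest in the combination (log2 ratio of mean shares -0.46), and MT-ND1 and MT-CYB are higher there (0.34 and 0.33).

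Most mitochondrial mRNAs were also lower in radiation alone. Against vehicle, 18 of 36 tested members were called lower and none higher (26 and 0 at an unadjusted p under 0.05, where 2997 of the 30967 genes passed, and 16 lower by DESeq2 and 18 by limma-voom with 0 higher). Over all genes, 1.1% were called, with 0.678% lower and 0.42% higher (210 and 130 genes, against 125 and 560 with library size only). Of all genes, DESeq2 called 260 lower and 248 higher, and limma-voom 193 lower and 115 higher. The called members were the same 12 mRNAs as in the combination, with MT-ND6 again outside (log2 -0.65, SE 0.172, adjusted p = 0.288), and 6 tRNAs. MT-ND3 had 181.2 and 181.9 scaled CPM in radiation 1 and 2, against 344.3, 361.3 and 360.3 in vehicle (log2 -0.97, SE 0.0783, adjusted p = 1.06e-15). MT-ATP6 fell by 0.94 on the log2 scale (SE 0.0649) and MT-ND4 by 0.87 (SE 0.0547). The smallest fall was that of MT-ND1 (log2 -0.53, SE 0.0637). The median over the mRNAs was -0.75, while that of all genes was -0.03. Both radiation libraries lay below every vehicle library in 33 of 37 members, as in 13.5% of all genes tested.

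Among the tRNAs, MT-TS1 had 37 and 23 counts in radiation 1 and 2 and 231, 325 and 88 in vehicle (log2 -2.82, SE 0.453, adjusted p = 0.000113). MT-TV (log2 -2.02, adjusted p = 7.94e-05), MT-TY (log2 -1.58, adjusted p = 4.32e-05) and MT-TE (log2 -1.19, adjusted p = 0.000187) fell as well. MT-TL2 (log2 -1.37, adjusted p = 0.0074) and MT-TP (log2 -0.42, adjusted p = 0.00201) completed the 6. The rRNAs did not pass. MT-RNR2 had 314302 and 306469 scaled CPM in radiation, below vehicle (log2 -0.09, SE 0.0393, adjusted p = 0.365), and MT-RNR1 had 27345 and 36189 (log2 -0.84, SE 0.166, adjusted p = 0.152). Without radiation 1, MT-CO1 (adjusted p = 0.0656) and MT-TP (0.189) lost their calls, MT-TS1 lost its call in limma-voom (0.0925), and MT-TL2 lost its call without radiation 1, radiation 2, vehicle 1 or vehicle 2 (0.0701 to 0.154). With all 12 libraries edgeR called 0 of 35 members (17 lower and 0 higher at an unadjusted p under 0.05) and 0 of 31858 genes, with a median mRNA change of -0.84. With the background covariate, 13 of 35 members were lower, where 72 of all 31858 genes were lower and 122 higher. Among the tRNAs, MT-TV (adjusted p = 0.127), MT-TY (0.0803), MT-TE (0.106), MT-TS1 (0.336) and MT-TL2 (0.241) then lost their calls, as did MT-ATP8 (0.0743).

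Few members differed between the combination and radiation alone. In the combination against radiation, edgeR called 3 of 36 tested members lower and none higher. Over all genes 0.568% were called, 0.426% lower and 0.142% higher (132 and 44 genes, against 58 and 142 with library size only). At an unadjusted p under 0.05, 11 members were lower and 0 higher, where 2954 of the 30967 genes passed. DESeq2 called 7 members lower and limma-voom 4, with 0 higher. Of all genes, DESeq2 called 368 lower and 50 higher, and limma-voom 114 lower and 13 higher. MT-ND3 had 140.7, 144.4 and 135.2 scaled CPM in the combination and 181.2 and 181.9 in radiation, with no overlap (log2 -0.37, SE 0.076, adjusted p = 0.00321). MT-RNR2 was lower by a small amount (log2 -0.18, SE 0.0391, adjusted p = 0.00868). MT-TE had 6.19, 4.17 and 4.51 scaled CPM in the combination and 9.1 and 9.76 in radiation (log2 -0.93, SE 0.213, adjusted p = 0.0155). Of the other mRNAs, MT-ND5 came closest (log2 -0.21, SE 0.0556, adjusted p = 0.058), and MT-ND4 (log2 0.02, SE 0.0533), MT-CYB (0.04, SE 0.0623) and MT-ND2 (0.01, SE 0.0646) lay near 0. The combination libraries lay below both radiation libraries for 7 of 13 mRNAs, as in 11.9% of all genes tested. Each call rested on few libraries. Without radiation 1 all 3 were lost, at log2 changes close to those above: -0.38 for MT-ND3 (adjusted p = 0.063), -0.16 for MT-RNR2 (0.181) and -0.98 for MT-TE (0.166). MT-RNR2 was also lost without combination 3 (0.0727), and MT-TE without combination 2 or 3, olaparib 1 or radiation 2 (0.0553 to 0.0979). With library size only, the MT-RNR2 change was log2 -0.09 and did not pass (adjusted p = 0.271). With only the compared groups in the fit, MT-RNR2 (adjusted p = 0.113) and MT-TE (0.162) did not pass, nor did MT-TE in limma-voom (0.316). With all 12 libraries 0 of 35 members (4 lower and 0 higher at an unadjusted p under 0.05) and 0 of 31858 genes were called.

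Olaparib alone is represented among the 9 libraries by olaparib 1, so its tests borrow the spread of the other groups and assume that this library varies like theirs. Summed, its mRNAs lay between the irradiated groups and vehicle, and 12 of 13 were below every vehicle library, as were 21.1% of all genes tested. MT-ND4 had 9704 scaled CPM in olaparib 1, against 13239 to 13715 in vehicle (log2 -0.48, SE 0.0693, adjusted p = 8.88e-06), and MT-ATP6 had 1612, against 2004 to 2226 (log2 -0.41, SE 0.0817, adjusted p = 0.0085). MT-ATP8 was also called lower (log2 -0.45, SE 0.0985, adjusted p = 0.0464). Over all genes, 0.0678% were called, with 0.0581% lower and 0.00969% higher. The MT-ATP6 call was lost without vehicle 2 (adjusted p = 0.166), and that of MT-ATP8 in 7 of the fits that left out 1 library. Among the members, the median mRNA change was -0.28 in DESeq2 and -0.27 in limma-voom. Both tools called more members lower than edgeR did, with the same single olaparib library. At an unadjusted p under 0.05, edgeR had 14 lower and 0 higher, where 1034 of the 30967 genes passed. In contrast, MT-ND3 stood at 325.1 scaled CPM in olaparib 1 (log2 -0.13, SE 0.0965) and MT-CO3 at 2063 (log2 -0.02, SE 0.0786), near vehicle. MT-RNR2, at 328195 scaled CPM, lay within the vehicle range (log2 -0.01, SE 0.0496). MT-RNR1 was at 21480 scaled CPM, lower than in any other of the 9 libraries, but its change did not pass (log2 -1.40, SE 0.224, adjusted p = 0.576). With all 12 libraries 0 of 35 members (16 lower and 1 higher at an unadjusted p under 0.05) and 0 of 31858 genes were called, while the median mRNA change was -0.77, against -0.27 in the 9.

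The interaction asks whether olaparib changed a member differently with radiation than without. Of 36 tested members, MT-ND4 was called (log2 0.50, SE 0.087, adjusted p = 0.00058): it differed by 0.02 between the combination and radiation, and by -0.48 between olaparib and vehicle. Over all genes, 0.2% were called for the interaction, with 0.0969% higher and 0.103% lower. At an unadjusted p under 0.05, 8 members were higher and 3 lower, where 2223 of the 30967 genes passed. DESeq2 called 5 members higher, of 54 genes higher and 115 lower in all, and limma-voom 5 higher and 1 lower, of 36 genes higher and 79 lower. This call rests on the single olaparib library, and with all 12 libraries, where 0 of 31858 genes were called, it was lost although the log2 value was larger (1.05, adjusted p = 0.159). With the background covariate the value was 0.58 (adjusted p = 0.497). For MT-ND3 the interaction was -0.25 (SE 0.122, adjusted p = 0.687).

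The 3 libraries with high background differed among themselves. In radiation 3 the mRNAs summed to 30025 scaled CPM, close to radiation 1 and 2 (30484 and 31522), and MT-ND3 stood at 174.9. The scaling factor of radiation 3 was 1.16. As an unscaled share of all counts its mRNAs took 3.47%, against 3.05% and 3.20% in radiation 1 and 2. In olaparib 2 and 3 the mRNAs summed to 22219 and 24626, far below the 43123 of olaparib 1. In olaparib 2 and 3 the scaling factor was 1.48 and 1.59, against 0.916 to 1.09 in the 9 libraries, and as an unscaled share of all counts the mRNAs took 3.24% and 3.85% there and 4.23% in olaparib 1. In scaled CPM, all 13 mRNAs and both rRNAs were below every vehicle library in all 3. As unscaled shares of all counts, a view chosen after seeing the data, this held for 9 of 13 mRNAs and both rRNAs, while MT-ND2, MT-ND5, MT-ND6 and MT-CYB overlapped with vehicle. The ratio of rRNA to mRNA counts was 8.84 and 6.95 in olaparib 2 and 3 and 9.22 in radiation 3. For 3 tRNAs (MT-TP, MT-TY and MT-TH) the 3 libraries also lay below every vehicle library, and for 4 tRNAs they lay above all of the 9. The share of all genes that did so was not counted, so these numbers say nothing particular to the members. MT-TF had 12.5, 22 and 9.26 scaled CPM in olaparib 2, olaparib 3 and radiation 3, against at most 2.93 elsewhere, and MT-TE had 53.2, 56.2 and 39.4, against at most 26.6. The olfactory receptor sum was high in the same 3 libraries, and its part in these levels was not tested.

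**Figure D5:**
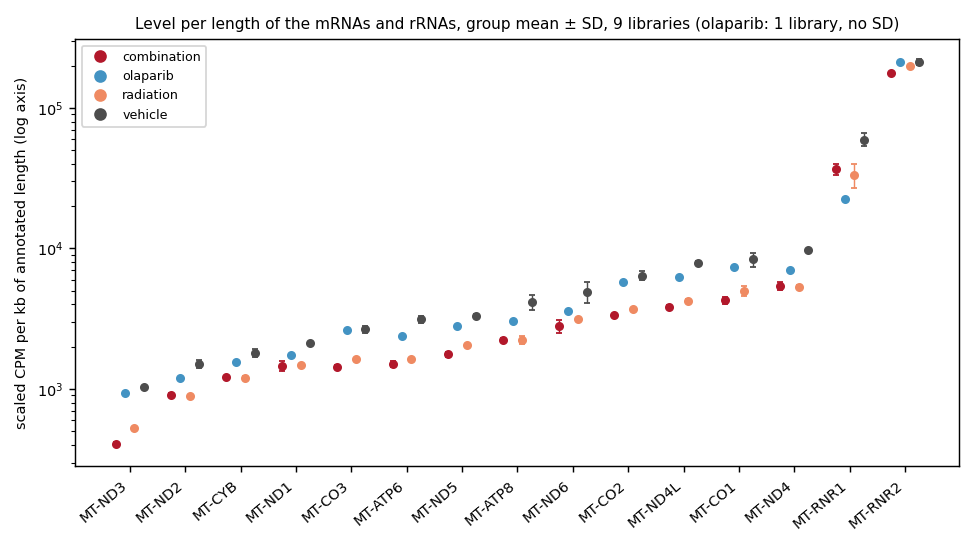
Scaled CPM per kb of annotated length for the mRNAs and rRNAs, as group mean with SD on a log axis, in the 9 libraries (olaparib is 1 library). The rRNAs lie above all mRNAs; among mRNAs MT-ND3 is lowest (405 in the combination and 1027 in vehicle) and MT-ND4 highest (5425 in the combination and 9808 in vehicle).

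Per kb of annotated length, levels spanned a wide range within a transcript class. In the combination MT-ND3 was lowest at 405 scaled CPM per kb (SD 13.4, n = 3) and MT-ND4 highest among the mRNAs at 5425 (SD 377, n = 3). In vehicle they were again lowest and highest, at 1027 (SD 27.6, n = 3) and 9808 (SD 179, n = 3). MT-CO1 followed at 4274 (SD 249) in the combination and 8377 (SD 932) in vehicle, where it was within its spread of MT-ND4L (7933, SD 172). In olaparib 1 the order differed, with MT-CO1 at 7334 and MT-ND4 at 7042. MT-ND6 stood at 2812 in the combination and 4942 in vehicle, above MT-ND5 (1775 and 2049 per kb in the combination and radiation, and 3311 in vehicle). MT-RNR2 reached 175913 per kb in the combination and 212476 in vehicle.

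Nuclear copies of mitochondrial genes can share reads with the members. Of 404 such genes, 105 had enough counts to test, with a median log2 change of 0.08 in the combination against vehicle. Beside 3.26% of all genes lower and 1.53% higher, 2 of the copies were called lower and 0 higher. These were MTATP6P1 (174.3 scaled CPM, SD 2.55, in the combination and 327, SD 24.5, in vehicle, n = 3 each; log2 -0.91, SE 0.0701) and MTND1P23 (log2 -0.95, SE 0.161), whose parents are MT-ATP6 and MT-ND1. Each shares many of its parent's 31-base words, 61.3% of those of MT-ATP6 and 27.8% of those of MT-ND1, so reads of parent and copy cannot be cleanly told apart. All copies together summed to 314.8 to 329.3 scaled CPM in the combination and 487.2 to 493.8 in vehicle, small beside the mRNA sums. MTATP6P1 was the largest part of these sums and made up most of the difference between them.

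Of 52 nuclear genes for mitochondrial DNA upkeep, transcription and RNA processing, 1 was called lower and 2 higher in the combination against vehicle (median log2 0.01), a share near the 4.8% called over all genes. LIG3, a DNA ligase, fell (log2 -0.42, SE 0.0942, adjusted p = 0.00169). TRMU, which thiolates mitochondrial tRNAs (log2 0.65, SE 0.147, adjusted p = 0.00185), and TFB1M, which methylates the 12S rRNA (log2 0.56, SE 0.163, adjusted p = 0.0238), rose. The count of 2 higher became 1 without combination 1, combination 3, vehicle 1 or vehicle 2, and 8 higher and 0 lower with library size only. POLRMT had 4.81 scaled CPM (SD 1.41) in the combination and 8.1 (SD 2.53, n = 3 each) in vehicle, a difference that did not pass (log2 -0.75, SE 0.248, adjusted p = 0.0646). TFAM (log2 -0.27, SE 0.0998, adjusted p = 0.111), TFB2M (0.31, SE 0.199, adjusted p = 0.534) and the elongation factor TEFM (-0.66, SE 0.269, adjusted p = 0.177) did not pass either. LRPPRC (log2 0.06, SE 0.0627), SLIRP (-0.13, SE 0.129), the RNA-degrading pair PNPT1 (0.04, SE 0.0822) and SUPV3L1 (0.08, SE 0.125), and the processing enzymes ELAC2 (-0.18, SE 0.126) and TRMT10C (0.18, SE 0.17) had changes near 0 with adjusted p of 0.59 to 0.918. PPARGC1A, a coactivator of mitochondrial gene programs, averaged 0.274 scaled CPM (SD 0.321) in the combination and 0.376 (SD 0.372) in vehicle (n = 3 each).

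Of 77 nuclear-encoded subunits of the respiratory complexes and ATP synthase, edgeR called 28 lower and 0 higher in the combination against vehicle, with a median log2 of -0.39, where 3.26% of all genes were lower, and most did not pass. It called 2 lower and 0 higher in radiation, where 0.678% of all genes were lower. NDUFA13 of complex I (log2 -0.83, SE 0.152), CYC1 of complex III (-0.79, SE 0.146) and NDUFS8 of complex I (-0.79, SE 0.237) fell most among those called in the combination. With library size only, 13 of the 77 were lower and 2 higher, and with all 12 libraries 0 were lower. In the combination, radiation and olaparib against vehicle, the 13 mitochondrial mRNAs had medians of -0.90, -0.75 and -0.27. Those of the 77 nuclear subunits were -0.39, -0.15 and 0.09 in the same order.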

How the data were processed

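RNA sequencing measured 12 libraries, 3 in each of 4 groups. The authors deposited estimated counts (expected counts) per Ensembl gene ID, for 60649 rows. Per the submitters' processing notes kallisto 0.46.1 and DESeq2 were used, and per the labels' protocols the libraries were stranded total RNA. The transcriptome release, genome build and strand setting are not given in the sources here. Of the values, 68.8% were whole to within 1e-06. The 44 pseudoautosomal Y rows were added to their X partners, leaving 60605 genes, and counts were rounded. A name table matched 60463 IDs. GENCODE 29 gave order, strand, length and sequence.

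The members, gene lists, tests and the libraries set apart were chosen with earlier results of these data known. All 37 members are named, with fixed nuclear genes and the 3 called genes of largest change in each nuclear list; MTATP6P1 and MTND1P23 were named after their values were seen. The main fit used 9 libraries in edgeR 4.0.16 (R 4.3.3): default count filter, TMM scaling, group means, the robust quasi-likelihood test, and p-values adjusted by Benjamini-Hochberg across all tested genes (threshold 0.05). The SE is the log2 change over the square root of F. Scaled CPM divides counts by TMM-scaled library size, and the 3 libraries apart were put on the same scale. A count of 0 allows up to 3 counts (0.0788 to 0.182 scaled CPM by library). The steps were tested on simulated data. Alternatives were other scalings and filters, DESeq2 1.42.0, limma-voom (limma 3.58.1), other sets of libraries, a background covariate and a replicate block. Same-numbered libraries were not paired in the main fit. Of 18 such pairs, 2 had correlated deviations over 0.1, which cannot show whether a number marks a shared culture.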

Additional observations from a re-analysis of the deposited data

Results flagged for a closer look

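MT-ND4, a complex I subunit mRNA, stood out because the effect of olaparib differed with and without radiation by a test of the difference itself (interaction log2 change 0.50, adjusted p = 0.00058, edgeR, 9 libraries). It differed by 0.02 between the combination and radiation and by -0.48 between olaparib and vehicle, and the value for olaparib rests on olaparib 1. The call was lost with all 12 libraries (log2 1.05, adjusted p = 0.159) and with the background covariate (0.58, adjusted p = 0.497). DESeq2 and limma-voom called more members higher than edgeR did, so MT-ND4 was not alone in every method.

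In the 3 libraries with high background, which enter no comparison of the 9, 4 tRNAs were above every vehicle library. Another 3 (MT-TP, MT-TY and MT-TH) were below every vehicle library, and the share over all genes was not counted. The lowest of the 3 libraries exceeded the highest vehicle library 3.33-fold for MT-TF, 1.48-fold for MT-TE, 1.31-fold for MT-TK and 1.23-fold for MT-TG. The part of the background in these levels was not tested.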

How the results depend on the processing

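Every called member kept its direction in all alternatives; counting each called member under each alternative, the call was lost in 46 of 456 cases for the combination against vehicle (23 of them with all 12 libraries), 33 of 356 for radiation, 20 of 57 for olaparib, 18 of 59 for the combination against radiation and 2 of 18 for the interaction. With all 12 libraries 0 members were called in any comparison, as were at most 1 of all 31858 genes, and in that fit the median mRNA change was -0.84 for radiation, -0.77 for olaparib and 0.72 for the interaction. With the background covariate too, 0 were lower for olaparib, 1 for the combination against radiation and 0 higher for the interaction, with medians of -0.82, -0.62, -0.38 and -0.19 for combination, radiation and olaparib against vehicle and combination against radiation. With library size only these medians were -0.70, -0.63, -0.20 and -0.058, with 1 member lower for olaparib. DESeq2 called 7 members lower for the combination against radiation, of 368 genes lower in all, and limma-voom 4 members, of 114 genes. For the combination against radiation, 5 were lower with mitochondrial genes left out of scaling, 6 with no count filter (2 higher for the interaction) and 1 with only the compared groups.

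Leaving out 1 library gave 20 to 24 members lower for the combination, 15 to 19 for radiation, 1 to 5 for olaparib and 0 to 4 for the combination against radiation, and 1 to 3 higher for the interaction. The mRNA medians ranged over -0.92 to -0.87, -0.81 to -0.73, -0.28 to -0.26, -0.17 to -0.12 and 0.19 to 0.23 in the same order. Over all genes, 690 to 1204 were lower for the combination against vehicle and 134 to 223 for radiation against vehicle. Such fits called 21 to 35 nuclear subunits, 2 to 3 nuclear copies and 1 to 2 expression factors lower, and 1 to 2 factors higher.

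Of the expression factors, 0 were lower with library size only, with 12 libraries or with the covariate; 8 were higher with library size only, 1 in limma-voom, 0 with 12 libraries and 1 with the covariate. Of the nuclear subunits, 13 were lower and 2 higher with library size only, 0 lower with 12 libraries and 13 with the covariate. Of the nuclear copies, 0 were lower with 12 libraries and 1 with the covariate. The log2 ratio of summed mRNAs, combination over vehicle, was -0.88 scaled and -0.68 with plain library sizes, and that of the MT-ND3 share was -0.46 of mRNA counts and -0.96 of all member counts. The causes were not tested.

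Between same-numbered libraries, correlations of deviations over all 12 libraries ran from -0.24 to 0.46, and 4 of 12 libraries correlated best with their own number. The 2 pairs over 0.1 were both between olaparib and radiation, the groups that hold the 3 libraries with high background. The check thus cannot show whether a number marks a shared culture. A replicate block gave 24 members lower for the combination, a median of -0.089 for the combination against radiation and 3 higher for the interaction. Depth limits the tRNAs, many of which had under 100 counts, and olaparib has 1 library in these tests.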
